A study of Mus musculus with 33 samples.

Results

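Nitrergic and cholinergic transmission in the embryonic mouse gut was described through the genes Nos1, Chat, Slc5a7, Ache and Slc10a4. Of these 5 genes, 4 had at least 1 probe set whose platform annotation named a single gene, and these 7 probe sets were taken from the 34945 single-gene probe sets of 18193 genes on the array. Nos1 had 4 of them, and Chat, Slc5a7 and Ache had 1 each. Slc10a4 is not reported, because its only annotated probe set carries a second gene symbol.

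Nitric oxide and acetylcholine are the main transmitters of the motor neurons that relax and contract the gut wall. Nos1 encodes the neuronal nitric oxide synthase, which makes nitric oxide from arginine with the cofactor tetrahydrobiopterin, and nitric oxide acts on guanylyl cyclase in the muscle. Chat makes acetylcholine from choline and acetyl-CoA, the vesicular transporter Slc18a3 packs it, Ache breaks it down in the synaptic cleft, and Slc5a7 carries the released choline back into the nerve ending.

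The arrays hold enteric neural crest cells (ENCCs), the migratory precursors of enteric neurons and glia, and whole guts. ENCCs came from transgenic C57BL/6 mice in which Wnt1-Cre, active in the neural crest, switches on a YFP reporter at the R26 locus, and were sorted for YFP from embryonic guts at day 14.5. The treated group received GDNF, the ligand of the receptor RET, at 50 ng/ml, and the untreated group did not. Both groups grew on fibronectin with FGF, EGF, N2 and B27, so every ENCC RNA is from cultured cells. Each of 9 guts gave 1 treated and 1 untreated well. Whole guts, from duodenum to anus, came from 8 wild-type C57BL/6 embryos of the same age and were not cultured. Shared litters and pooling of whole gut RNA are not mentioned in the labels, so the p-values measure the spread between these samples.

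There were 13 arrays of treated ENCCs, 12 of untreated ENCCs and 8 of whole gut. Batch 1 held 17 arrays, all of ENCCs, and batch 2 held 16, among them every whole gut. Arrays of 1 RNA were counted once, and 7 ENCC RNAs were read in both batches. All values are scores that rank a probe set within its array, after what appears to be a scaling of each probe set within its batch. That scaling appears to rest on the 7 ENCC RNAs read in both batches, so the RNAs read in 1 batch lie outside it. The scores run from -4.08 to 4.08 with a median of 0.00, carry no level and give no fold change. In the marker check, pan-neuronal genes scored higher in treated ENCCs than in whole gut in 18 of 18 measured and in untreated ENCCs in 16 of 18, progenitor and glia genes in 10 of 11 and 9 of 11, and gut epithelium genes were lower in 11 of 11 in both. The 1 pan-neuronal gene that was lower was lower in untreated ENCCs. The batch 2 array of the untreated well of gut 3 stood apart. Over all single-gene probe sets it correlated at 0.143 with the batch 1 array of the same RNA and at 0.184 with that of the untreated well of gut 4. The other RNAs read in both batches were closest to themselves within their group (0.277 to 0.362). Values without this array are given for the main differences of Nos1, Chat, Slc5a7, Ache and Slc18a3 that it enters. They are not given for batch 2 alone, single Nos1 probe sets, gene lists or other genes.

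The promoters of the 2 genes that passed the GDNF test, Ache and Slc5a7, are shown first, to set side by side the sequence at the start of the genes that were called together. Each is the 300 bases around the RefSeq start in GRCm38.p6, written 5′ to 3′ in the direction of the gene. Capitals mark matches on either strand to the GC box letters GGGCGG in Ache and to the TATA box letters TATAAA in Slc5a7. The Ache window is chr5:137288004-137288303 on the plus strand, and the Slc5a7 window is chr17:54298985-54299284 on the minus strand.
Ache: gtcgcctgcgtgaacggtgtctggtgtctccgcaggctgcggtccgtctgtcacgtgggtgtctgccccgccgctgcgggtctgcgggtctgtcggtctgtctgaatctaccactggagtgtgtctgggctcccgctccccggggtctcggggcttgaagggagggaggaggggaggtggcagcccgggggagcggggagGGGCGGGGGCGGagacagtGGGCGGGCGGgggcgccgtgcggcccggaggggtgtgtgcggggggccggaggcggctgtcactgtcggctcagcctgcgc
Slc5a7: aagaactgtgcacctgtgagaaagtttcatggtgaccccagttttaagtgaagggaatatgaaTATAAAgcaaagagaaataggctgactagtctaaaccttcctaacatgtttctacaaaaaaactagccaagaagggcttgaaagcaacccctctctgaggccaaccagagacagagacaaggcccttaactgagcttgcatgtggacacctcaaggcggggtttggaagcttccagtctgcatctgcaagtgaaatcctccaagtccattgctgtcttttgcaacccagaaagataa

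The Ache window held 4 GC boxes in 2 overlapping or adjoining pairs, and 0 TATA boxes. It also held 2 matches to GCGNGGGCG, the letters bound by EGR factors, both of which overlap a GC box. The Slc5a7 window held 1 TATA box and 0 GC boxes. Of 32851 promoter windows of this length in the RefSeq table, 35.7% held a GC box, 5.55% the EGR letters and 13.6% a TATA box. The windows of Nos1 and Chat held none of the 3 motifs. These matches describe letters and were not tested for binding.

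The first comparison asked how GDNF changed these genes within a gut. Of the 4 genes, 2 rose, Ache and Slc5a7, and 0 fell, where limma called 31.5% of all 18193 genes, 18.3% higher and 13.2% lower. Ache rose in all 9 guts. Slc5a7 rose in 8 of 9 on average, but the mean difference was 1.33 in batch 1 and 0.08 in batch 2. In batch 2 gut 2 rose, and guts 3, 8 and 9 fell. Nos1 and Chat did not pass, and the score of Nos1 differed between guts more than that of nearly any other gene.

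**Figure D1:**
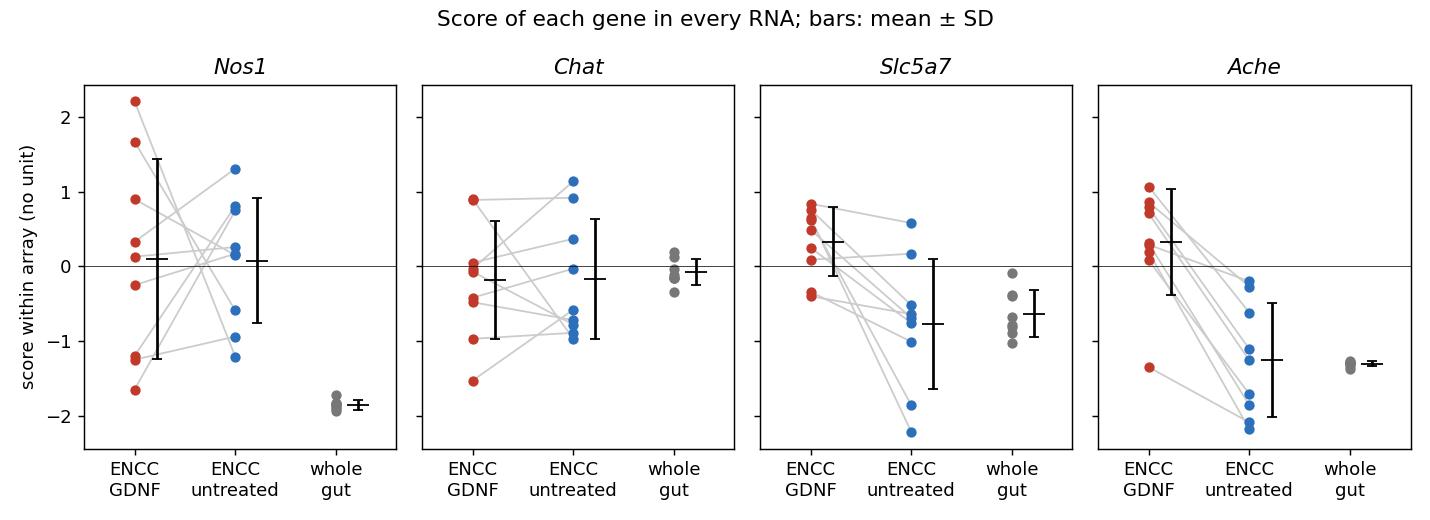
Score within the array (no unit) of each gene in every RNA of GDNF-treated ENCCs, untreated ENCCs and whole gut. Grey lines join the wells of 1 gut, and bars are mean ± SD. Treated Ache lies above untreated Ache in each gut, and all whole guts lie below all ENCC RNAs for Nos1.

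Ache, the acetylcholinesterase gene, had scores of -1.35 to 1.07 with a median of 0.31 in treated ENCCs, and of -2.18 to -0.20 with a median of -1.26 in untreated ENCCs (n = 9 each). The ranges overlapped through gut 1, whose treated well, at -1.35, lay far below the other treated wells and still above its own untreated well, at -2.09. In guts 1 to 9 the treated well was higher by 0.74, 0.51, 1.97, 2.17, 1.90, 1.80, 2.37, 1.13 and 1.69. The mean difference was 1.59 ± 0.65 (SD, n = 9 guts, limma adjusted p = 2.8e-04). Of all genes, 11.7% were higher in all 9 guts.

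The rise of Ache stood in both batches. In batch 1 its mean was 1.81 (8 guts, limma adjusted p = 5.9e-04), and in batch 2 it was 1.15 (4 guts, adjusted p = 0.238), where limma called 0 of all genes and 3516 had an unadjusted p under 0.05. For guts 3, 8 and 9, whose wells were read in both batches, the difference was 1.72, 1.39 and 2.40 in batch 1 and 2.23, 0.86 and 0.98 in batch 2. Every difference of Ache within either batch was above 0, and without the batch 2 array of untreated gut 3 the mean was 1.56 (adjusted p = 3.2e-04). The scores of the 7 RNAs read in both batches correlated with r = 0.82 between batches, above 84.1% of all single-gene probe sets.

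**Figure D2:**
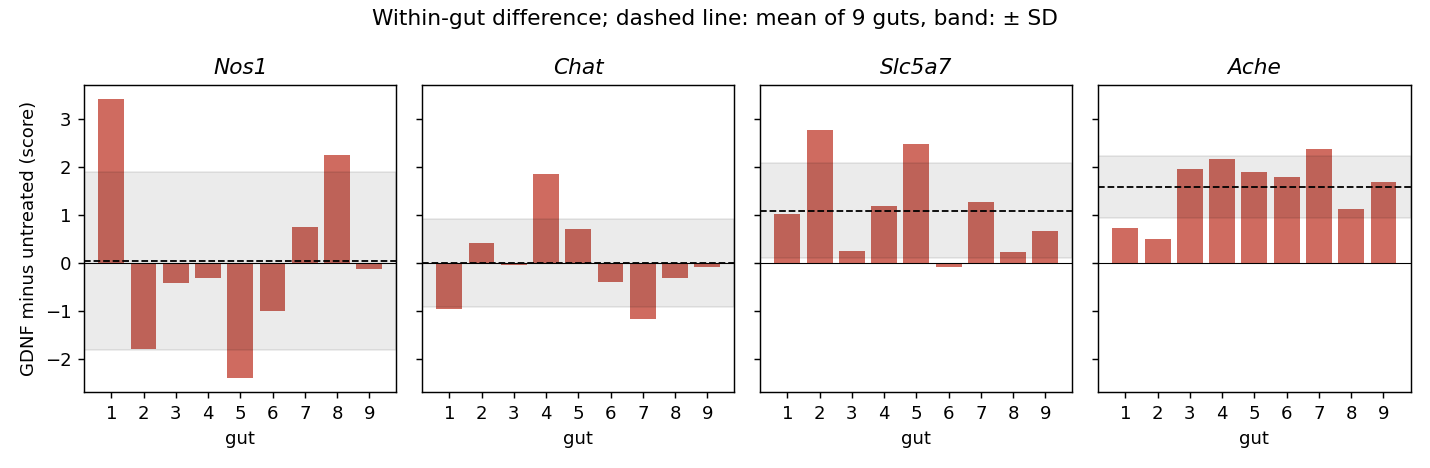
Difference in score, GDNF-treated minus untreated well, for each of the 9 guts, with the mean as a dashed line and ± SD as a band. Ache is above 0 in 9 guts and Slc5a7 in 8, while Nos1 spans -2.40 to 3.42.

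Slc5a7, the high-affinity choline transporter gene, had scores of -0.40 to 0.84 with a median of 0.49 in treated ENCCs, and of -2.22 to 0.58 with a median of -0.69 in untreated ENCCs. The groups overlapped. By gut, the treated well differed by 1.02, 2.78, 0.26, 1.18, 2.48, -0.08, 1.27, 0.24 and 0.67, a mean of 1.09 ± 0.99 (SD, n = 9, limma adjusted p = 0.0139). Guts 2 and 5 held the largest differences, and gut 6 had none upward.

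The batches disagreed on Slc5a7 for the same RNAs. In guts 3, 8 and 9 the difference was 1.94, 1.00 and 1.87 in batch 1, and it was -1.41, -0.51 and -0.54 in batch 2. Batch 1 alone gave 1.33 (adjusted p = 0.00472) and batch 2 alone 0.08 (adjusted p = 0.959), where gut 2, read as a pair only there, was at 2.78. The 7 repeated RNAs correlated with r = 0.11 between batches, above 33.5% of probe sets. Fitted beside the hybridisation controls, Slc5a7 was no longer called (1.11, adjusted p = 0.0566). Leaving out the batch 2 array of untreated gut 3 gave a mean of 1.28 (adjusted p = 0.00543).

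Chat, which encodes the enzyme that makes acetylcholine, scored -1.53 to 0.90 with a median of -0.07 in treated ENCCs, and -0.97 to 1.14 with a median of -0.58 in untreated ENCCs. The difference was 0.00 ± 0.91 (SD, n = 9, limma adjusted p = 0.992), higher in 3 guts and lower in 6. Gut 4 was the most positive, at 1.86, and gut 7 the most negative, at -1.17. The moderated standard error was 0.29. A call needs a difference well beyond its standard error, so changes somewhat larger than that in either direction could also be missed. Between batches r was 0.36 over 7 RNAs, near the median of 0.37 over all probe sets. In guts 3, 8 and 9 the Chat difference was 0.79, -1.55 and -0.69 in batch 1 and -0.85, 0.92 and 0.54 in batch 2, of opposite sign in each. Slc18a3, the vesicular acetylcholine transporter gene, which lies inside the Chat locus, also did not pass, at -0.19 ± 1.17 (adjusted p = 0.72). Without the batch 2 array of untreated gut 3, Chat was at 0.10 (adjusted p = 0.849) and Slc18a3 at -0.02 (adjusted p = 0.979).

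**Figure D3:**
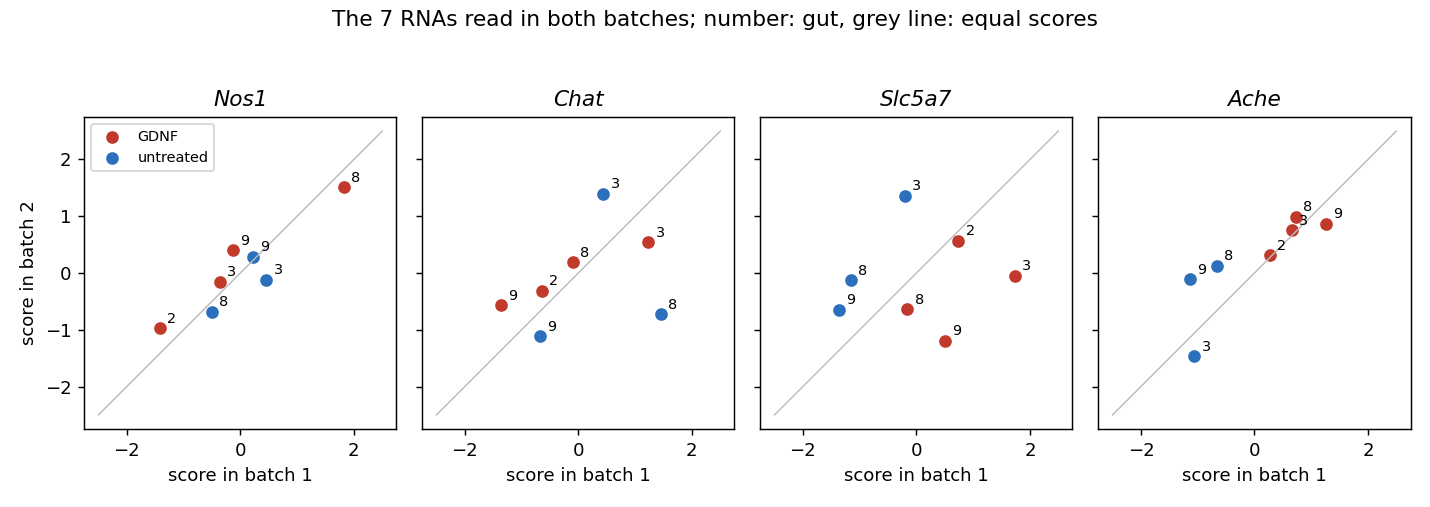
Score in batch 2 against score in batch 1 for the 7 ENCC RNAs read in both, by gene; numbers give the gut and the grey line marks equal scores. Nos1 and Ache follow the line more closely than Chat and Slc5a7, where the Slc5a7 score of treated gut 3 was 1.73 in batch 1 and -0.05 in batch 2.

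Nos1, the neuronal nitric oxide synthase gene, scored -1.65 to 2.21 with a median of 0.13 in treated ENCCs, and -1.21 to 1.31 with a median of 0.17 in untreated ENCCs, as the mean of its 4 probe sets. The groups overlapped throughout. The difference was 0.04 ± 1.86 (SD, n = 9, limma adjusted p = 0.96), and it was positive in 3 guts and negative in 6. Gut 1 was at 3.42, gut 8 at 2.26 and gut 7 at 0.75, while gut 5 was at -2.40, gut 2 at -1.79 and gut 6 at -0.99. The SD over guts was larger than that of 98.4% of genes. It is an SD of scores that appear scaled by probe set, so it does not measure a spread of expression level. Guts 1 and 5, with the widest differences, lie outside the RNAs on which that scaling appears to rest. Without gut 1 the mean was -0.38 (adjusted p = 0.549), and without the batch 2 array of untreated gut 3 it was 0.00.

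The spread of Nos1 between guts was shared by 3 of its probe sets. For 1422949_at, 1429887_at and 1438483_at, gut 1 was at 4.49, 4.33 and 4.20, and gut 5 at -2.80, -2.57 and -3.44. Their SDs over guts were 2.48, 2.24 and 2.40, larger than those of 99.8%, 99.4% and 99.7% of probe sets. Across the 18 ENCC RNAs these probe sets correlated with each other at r = 0.88 to 0.91, which is a description of probes on shared arrays. Between batches each correlated at 0.80 to 0.83 over 7 RNAs, the same RNAs hybridised again. In gut 8 the Nos1 mean was 2.33 in batch 1 and 2.19 in batch 2, in gut 3 it was -0.81 and -0.03, and in gut 9 it was -0.36 and 0.11.

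The fourth Nos1 probe set, 1458626_at, did not follow the others. It correlated with them at r = 0.43 to 0.47 over 18 RNAs and at 0.13 between batches. Its difference was 0.06 ± 1.26 (limma adjusted p = 0.926), with gut 8 at 2.46 and gut 7 at -1.57. None of the 4 probe sets passed alone, at -0.11, 0.52, -0.29 and 0.06, where 30.1% of all probe sets did.

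**Figure D4:**
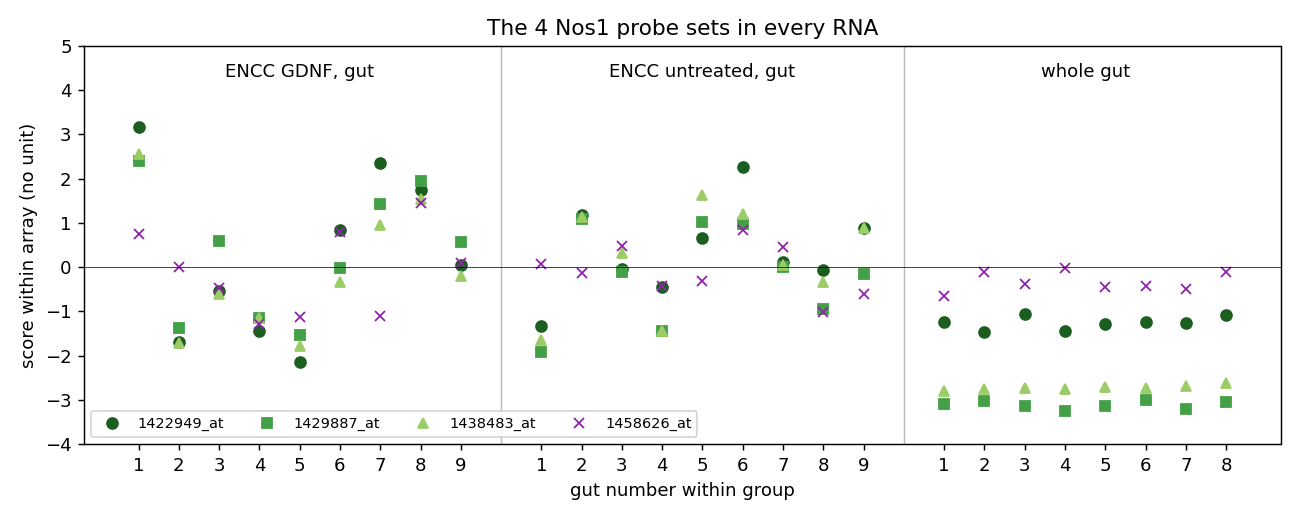
Score within the array of the 4 Nos1 probe sets in every RNA, by group and gut number. The green symbols (1422949_at, 1429887_at, 1438483_at) move together from gut to gut. In whole gut 1429887_at and 1438483_at lie below all ENCC RNAs, and 1422949_at lies lower on average but overlaps them. The crosses (1458626_at) neither follow the green symbols nor lie apart in whole gut.

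Other markers were read in the same wells, where limma called 18.3% of all genes higher with GDNF and 13.2% lower. The 18 pan-neuronal genes had a mean difference of 1.19 ± 0.23, higher in 9 of 9 guts, with mean scores of -0.03 to 0.79 in treated and -1.58 to -0.35 in untreated ENCCs. Of these genes 13 rose and 0 fell. The 7 measured ribosomal protein genes, taken as a sign of RNA quality, differed by -1.55 to -0.37 and were lower in 9 of 9 guts, with mean scores of -0.98 to 0.28 in treated and 0.41 to 1.22 in untreated ENCCs. Their part in the rise of Ache was not tested. Erythroid cells and muscle also express Ache. Of 8 erythroid genes 0 passed in limma (means of -0.37 to 0.44 in treated and -0.42 to 0.37 in untreated ENCCs), and of 14 muscle genes 2 rose and 0 fell (-0.40 to 0.97 and -0.50 to 0.32). The 12 genes of gut mesenchyme and interstitial cells of Cajal differed by -0.46 ± 0.42, lower in 8 of 9 guts, and 1 rose and 4 fell (means of -0.87 to 0.42 in treated and -0.40 to 0.76 in untreated ENCCs). Of 11 progenitor and glia genes 3 rose and 2 fell, with a mean difference of 0.03 ± 0.65. The counts of the muscle list and of the progenitor and glia list were near the shares of all genes. The muscle and the pan-neuronal lists both stood highest in gut 1, at 1.15 and 1.55, where Nos1 was highest too. Arrays of bulk cells cannot tell fewer cells of a type from less RNA per cell. The hybridisation controls differed by -0.72 ± 0.99 between wells, and Ache fitted beside them was at 1.78 (adjusted p = 0.00175).

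The second comparison set ENCCs against whole gut, within batch 2, with 4 treated and 4 untreated wells of guts 2, 3, 8 and 9 and 8 whole guts. Both comparisons use the same whole guts. Limma fitted a common variance to the ENCC wells and the whole guts of a comparison. Their spreads were unequal, with SDs of 1.04 and 0.07 for Nos1 with treated ENCCs. For Ache with untreated ENCCs they were 0.72 and 0.03. Where the whole guts vary far less, the p-values understate the spread of the ENCC wells and can be too small. Fits with separate variances were not run. Nos1 and Ache were higher in treated and in untreated ENCCs, and Slc5a7 and Chat passed in neither. Limma called 51% of genes for treated ENCCs, 25.1% higher and 26% lower, and 42.6% for untreated ENCCs, 19.8% higher and 22.8% lower.

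Nos1 scored 0.20 ± 1.04 in treated ENCCs (n = 4) and -1.86 ± 0.07 in whole gut (SD, n = 8), a difference of 2.05 (limma adjusted p = 1.6e-04). In untreated ENCCs it scored 0.07 ± 0.63, which is 1.93 above whole gut (adjusted p = 1.2e-05). Whole guts ranged from -1.94 to -1.72, below every ENCC RNA of both batches. Groups that did not overlap were found for 34.9% of genes with treated and 27.6% with untreated ENCCs. The probe sets differed by unequal amounts. Against whole gut, 1429887_at differed by 3.84 for treated and 2.94 for untreated ENCCs, and 1438483_at by 2.71 and 3.05. For 1422949_at the differences were 1.34 and 1.64. Each was called, but for 1422949_at the treated wells overlapped the whole guts (limma adjusted p = 0.038). The fourth probe set, 1458626_at, at 0.32 and 0.08, was not called. Of all probe sets, 47.2% were called for treated ENCCs, 23.7% higher and 23.5% lower, and 37.8% for untreated ENCCs, 18.6% higher and 19.2% lower.

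Ache stood at 0.73 ± 0.30 in treated ENCCs and -1.30 ± 0.03 in whole gut, a difference of 2.04 (limma adjusted p = 7.0e-08), and the groups did not overlap. The treated wells of guts 2, 3, 8 and 9 were at 0.31, 0.75, 0.99 and 0.87, and the whole guts lay between -1.37 and -1.27. In untreated ENCCs Ache stood at -0.41 ± 0.72, 0.89 above whole gut (adjusted p = 0.0084), and here the groups overlapped. The untreated wells of guts 2, 3, 8 and 9 were at -0.20, -1.47, 0.13 and -0.11, of which gut 3 lay below all whole guts. With all 9 untreated RNAs, averaged over batches, the difference was 0.05 (adjusted p = 0.896), and with all 9 treated RNAs it was 1.63 (adjusted p = 1.2e-05). The untreated RNAs of guts 1, 4, 5, 6 and 7, read in batch 1 and not in batch 2, were at -2.09, -1.86, -1.11, -1.71 and -2.18. Without the untreated well of gut 3, whose array stood apart, the difference in batch 2 was 1.24 (adjusted p = 9.6e-07), and the remaining untreated wells lay above all whole guts.

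Slc5a7 scored -0.33 ± 0.75 in treated ENCCs, -0.41 ± 1.48 in untreated ENCCs and -0.63 ± 0.31 in whole gut, differences of 0.31 (limma adjusted p = 0.394) and 0.23 (adjusted p = 0.718). With all 9 treated RNAs it was 0.96 above whole gut (adjusted p = 4.9e-04). Chat scored -0.04 ± 0.50 in treated ENCCs, -0.29 ± 1.14 in untreated ENCCs and -0.08 ± 0.17 in whole gut, differences of 0.04 (adjusted p = 0.87) and -0.21 (adjusted p = 0.66). Without the untreated well of gut 3, Chat was at -0.77 against whole gut (adjusted p = 6.1e-04) and Slc5a7 at -0.36 (adjusted p = 0.423), while Nos1 was at 1.99 (adjusted p = 2.3e-05). Slc18a3 was at -0.82 in treated (adjusted p = 0.0889) and 0.36 in untreated ENCCs (adjusted p = 0.211). It passed without gut 2 or gut 3 in the treated group (-1.18 and -1.05) and without gut 2 in the untreated group (0.59). It moved the other way without treated gut 9 (-0.30, adjusted p = 0.327) and without untreated gut 8 (0.15, adjusted p = 0.57), and was at 0.39 without untreated gut 3.

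In batch 2 the means of Ache fell in the order treated ENCCs, untreated ENCCs and whole gut. The ENCC groups lay 1.15 apart, in 1 direction in all 4 guts, in a fit that called 0 genes. Untreated ENCCs lay 0.89 above whole gut, but these groups overlapped. With all 9 untreated RNAs that difference was 0.05 (limma adjusted p = 0.896). For Nos1 both ENCC groups stood above whole gut and did not differ from each other beyond their spread. For Chat and Slc5a7 the groups of batch 2 overlapped, and against whole gut neither passed with all 4 wells of a group.

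The rest of each pathway was read from lists, of which the medians stand beside 0.01 over all genes in the GDNF comparison, and the counts beside the 18.3% of all genes that rose and the 13.2% that fell. Of the 4 other genes that pack, anchor or break down acetylcholine, 2 rose and 0 fell with GDNF (median 0.53). Bche, a second cholinesterase, rose by 1.32 ± 0.84 (SD, n = 9, limma adjusted p = 0.00236), and Prima1, which anchors Ache in the membrane, rose by 1.24 ± 0.60 in 9 of 9 guts (adjusted p = 0.00112). Colq, the collagen tail of Ache, named here after its value was seen, was at -0.36 ± 1.21 and did not pass. Of 11 genes of choline supply and acetyl-CoA, 5 rose and 0 fell (median 0.65). These included Dlat and Pdha1 of the pyruvate dehydrogenase complex, at 1.51 ± 0.47 and 1.26 ± 0.67, and the citrate carrier Slc25a1 at 1.36 ± 0.51, each higher in 9 of 9 guts. The choline transporter-like genes Slc44a1 to Slc44a4 and the choline kinases Chka and Chkb, named here after their values were seen, did not pass.

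Nicotinic acetylcholine receptors carry fast transmission between enteric neurons, and other subunits form the muscle receptor. Of 15 measured subunits of any kind 4 rose and 1 fell (median 0.29), a share near that of all genes. Chrnb4 rose by 1.97 ± 0.48, Chrna5 by 1.57 ± 0.48 and Chrna3 by 1.13 ± 0.54 (n = 9), subunits that autonomic ganglia combine. The call for Chrna3 ended with its most reproducible probe set (0.40). Chrnb1, the subunit of the muscle receptor, was at -1.37 ± 0.69. Of 3 muscarinic receptors 1 rose, Chrm3, at 1.36 ± 0.97, which did not pass in batch 1 alone (1.00), and 0 fell (median 0.73).

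On the nitrergic side, of 6 genes of tetrahydrobiopterin 3 rose and 0 fell (median 0.82). Gch1, the first enzyme of its synthesis, rose by 1.66 ± 0.34 (limma adjusted p = 7.0e-05) and Pcbd1, which recycles it, by 1.64 ± 0.42. Gchfr, the regulator of Gch1, rose by 1.03 ± 0.84, a call that ended without pairing (1.05, adjusted p = 0.0554) and beside the hybridisation controls (0.88). Gch1 also serves the synthesis of catecholamines and serotonin. Of 7 measured partners and other synthases 3 rose and 0 fell (median 0.57). Dlg4, the scaffold protein PSD-95 that binds Nos1, rose by 1.81 ± 0.61, and Dynll1, a dynein light chain that binds it, by 0.98 ± 0.43, not called without pairing (0.98, adjusted p = 0.0594). Hsp90aa1 was at 0.57 ± 0.42 (adjusted p = 0.0474), a call lost without any 1 of guts 2 to 9. Nos2 and Nos3, chosen here after their values were seen, were at -0.70 ± 1.28 and 0.77 ± 1.24 and did not pass.

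Of 9 genes of arginine and citrulline supply 2 rose and 1 fell (median 0.18), also a share near that of all genes. The cationic amino acid transporter genes were called in opposite directions, Slc7a3 at 1.60 ± 0.33 and Slc7a1 at 0.80 ± 0.39, but Slc7a2 at -1.05 ± 0.60 and lower in 9 of 9 guts. Of 6 genes of the nitric oxide receptor and cGMP 4 rose and 1 fell (median 1.20). The guanylyl cyclase subunits Gucy1b1, Gucy1a1 and Gucy1a2 rose by 1.72 ± 0.43, 1.54 ± 0.54 and 1.49 ± 0.68, each in 9 of 9 guts. Prkg1, the cGMP-dependent kinase that relaxes smooth muscle, was at -1.48 ± 0.43 and lower in 9 of 9.

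**Figure D5:**
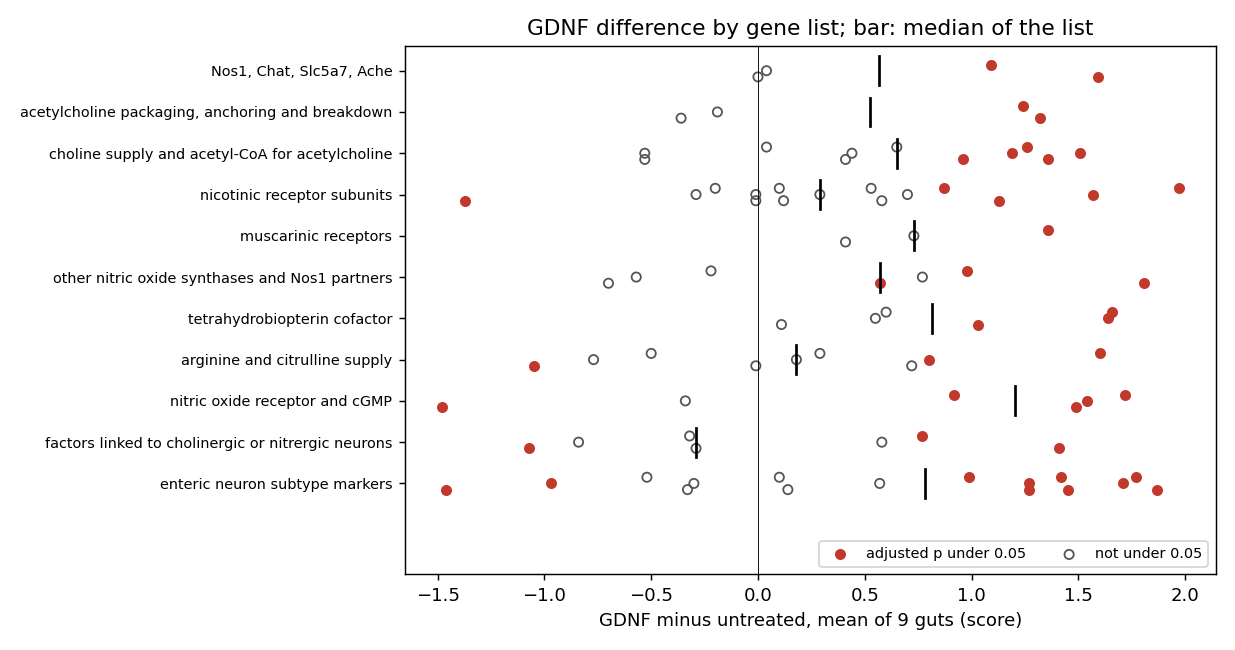
Mean GDNF difference in score over 9 guts for every measured gene of each list; filled points passed an adjusted p of 0.05, open points did not, and the bar is the median of the list. The medians run from -0.29 for the transcription factors to 1.20 for the nitric oxide receptor and cGMP genes.

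Of 7 measured transcription factors linked to cholinergic or nitrergic neurons, 2 rose and 1 fell (median -0.29). Phox2a, needed for autonomic neurons, rose by 1.41 ± 0.53. Pbx3 was at 0.77 ± 0.65 and Lhx8, a factor of forebrain cholinergic neurons, at -1.07 ± 1.33, and both calls were lost without single guts. Pbx3 fell short without gut 3 or 4 (0.69 and 0.74). Lhx8 fell short without gut 2, 3, 4, 5, 6, 8 or 9, at -1.14 to -0.88.

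Among 16 markers of enteric neuron subtypes 8 rose and 2 fell (median 0.78). The peptide gene Vip, carried by many nitrergic neurons of the gut, rose by 1.77 ± 0.34 in 9 of 9 guts (limma adjusted p = 6.5e-05), in the same wells in which Nos1 ranged from -2.40 to 3.42. Slc18a2, the vesicular monoamine transporter, and Grp, a peptide gene, rose by 1.87 ± 0.27 and 1.71 ± 0.53. Npy and Ddc, an enzyme of monoamine synthesis, were at -1.46 ± 1.29 and -0.97 ± 0.79. Th and Dbh, also enzymes of monoamine synthesis and named here after their values were seen, were called higher, at 1.27 ± 1.02 and 1.27 ± 0.69.

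Against whole gut, where 51% of all genes were called for treated and 42.6% for untreated ENCCs, the tetrahydrobiopterin genes were higher in 1 and lower in 1 of 6 in treated ENCCs and higher in 0 and lower in 4 in untreated ENCCs. Choline supply genes were higher in 6 and lower in 2 of 11 in treated ENCCs, and higher in 2 and lower in 6 in untreated ENCCs. Of 15 nicotinic subunits 5 were higher and 1 lower in treated ENCCs, and 4 were higher and 0 lower in untreated ENCCs. Over both directions the nicotinic shares lay below those of all genes. The nicotinic shares that were higher lay above the 25.1% and 19.8% of all genes. Subtype markers were higher in 11 and lower in 2 of 16, and in 7 and 3. Whether the ENCC groups differ in these counts was not tested apart from the GDNF comparison.

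The members did not follow one pattern across the 18 ENCC RNAs. Nos1 correlated with Chat at r = -0.26, with Slc5a7 at -0.18 and with Ache at -0.11, Chat with Slc5a7 at 0.41 and with Ache at 0.08, and Slc5a7 with Ache at 0.31. The RNAs share arrays, batches and guts and span both treatments, so these are descriptions. Genes that rise together with GDNF can correlate for that alone. The genes most like Nos1, by Pearson correlation over the same RNAs, were Wipi1 at 0.92, Scn7a at 0.84 and Mfsd4a at 0.82. Those most like Ache were Tctex1d2 at 0.91, Tmem176a at 0.90 and Coro1a at 0.90. Slc5a7 was closest to Taf1b, Tmem68 and Lrrc51, at 0.86, 0.84 and 0.81, and Chat to Acrv1, Sun3 and Slc18a1, at 0.72, 0.71 and 0.69.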

How the data were processed

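Affymetrix arrays measured 33 biotin-labelled samples. Per the submitters' processing notes the authors used RMA, with no version. The values the authors deposited are scores, not log2 values. Sorted, the 45101 values of each array equal normal quantiles of rank within 5e-06. Averaged over the 7 repeated RNAs, probe sets had an SD of 0.0585 and 0.117, against 0.378 for independent arrays, so scaling within a batch appears to precede ranking; no label records it. Ranking holds down large differences, and the number of arrays limits the precision.

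Computed here: 34958 probe sets had 1 gene symbol in the platform annotation, 932 several and 9211 none. Controls (64) were left out, and the score of a gene is the mean of its probe sets. For GDNF, each gut gave treated minus untreated, taken between arrays of 1 batch, and guts 3, 8 and 9 entered as the mean of 2 differences. Limma 3.58.1 in R 4.3.3 (lmFit, eBayes) was fitted to 9 differences, and to batch 2 for whole gut, with Benjamini-Hochberg adjustment over all genes (or probe sets) and a threshold of 0.05, and tested on simulated data. The pairing comes from the labels' protocol, in which 1 gut gave both wells. In batch 1 wells of a gut deviated together with r = 0.03 to 0.30, and in 2 of 8 guts the treated well was closest to the untreated well of its own gut. Named are the members, Slc18a3, the 3 genes most like each member, and up to 3 called genes per direction of each list. The members and lists were chosen with earlier results of these data known.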

Additional observations from a re-analysis of the deposited data

Results flagged for a closer look

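The Ache score of the treated well of gut 1, at -1.35, lay far below the other treated wells, whose lowest was 0.08. The untreated well of that gut, at -2.09, was among the lowest of its group as well. It was the 1 value to stand apart in 32 groups of scores or differences examined, of which chance alone would put about 1 in 20 apart. Without gut 1 the GDNF difference of Ache was 1.69.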

How the results depend on the processing

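Over the alternatives run, Ache kept its rise with GDNF (1.49 to 1.72 leaving out 1 gut at a time) and lost the call only in batch 2 alone (1.15). Slc5a7 (0.88 to 1.24) lost it in batch 2 alone (0.08) and beside the hybridisation controls (1.11, adjusted p = 0.0566). The number of the 4 genes called was 0 in batch 2 alone, where limma called 0 of all genes and 3516 passed an unadjusted p of 0.05, and 1 with these controls as a covariate. It stayed at 2 leaving out any gut. Without pairing (no gut block) Ache was at 1.58, Slc5a7 at 1.10 and Nos1 at 0.02, with no call among the 4 genes changed, and 4859 genes were called against 5725. Leaving out 1 gut gave 5029 to 5909. Differences near 0 changed sign. Nos1 was at -0.03 with its probe sets fitted singly, -0.33 with the covariate and -0.38 to 0.35 leaving out 1 gut, and Chat ranged over -0.23 to 0.15. Slc18a3 was at 0.18 in batch 1 alone and -1.18 in batch 2 alone (adjusted p = 0.298). Against whole gut, with all 9 RNAs, Chat was at -0.10 for treated ENCCs, Slc5a7 at -0.14 for untreated ENCCs, and 1 of the 4 genes was called for untreated ENCCs. Leaving out 1 sample, treated Chat ranged over -0.15 to 0.22, untreated Chat over -0.77 to 0.06, and untreated Slc5a7 over -0.36 to 0.83. Nos1 kept its call in each, at 1.61 to 2.44 and 1.68 to 2.18. Likeness over the 17 arrays of batch 1, an alternative chosen after seeing the data, ranged from 0.58 for Acrv1 and Chat to 0.93 for Tctex1d2 and Ache. The cause of these changes was not tested.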
